A study of Mus musculus with 15 samples.

Results

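The genes described here are 37 genes of DNA replication and S phase, measured in 5 lines of 4T1 cells, a metastatic mouse mammary carcinoma line. They were chosen by name from a list of origin licensing factors, helicase subunits and activators, replicative polymerases, the sliding clamp and its loader, Okazaki fragment enzymes, nucleotide supply enzymes, Uhrf1, E2F factors and the kinase of the G1/S step. All 37 of 37 were measured, among 19937 genes in all. Each gene was read from its brightest probe set, the one with the highest mean over all 15 arrays.

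Each line was hybridised to 3 arrays. Parental 4T1 cells were the starting line. Tw1KD cells are 4T1 cells depleted of endogenous Twist1, a transcription factor known for driving epithelial-mesenchymal transition. In the other 3 lines the depleted cells express wild-type Twist1 (here the wild-type line), Twist1 with the S42A change (the S42A line) or Twist1 with the S42D change (the S42D line). S42A puts alanine, which cannot be phosphorylated, in the place of a serine, and S42D puts aspartate there, whose negative charge is often used to imitate a phosphate. For the S42D samples the genotype label names both changes, and the sample title was followed. Per the labels, all cells including the parental line grew to 70% confluency in DMEM that held G418 (800 µg/ml) and puromycin (4 µg/ml). How Twist1 was depleted, how the constructs were brought in, and whether a line is 1 clone are not given in the sources used here. Nothing in the labels tells if the 3 arrays of a line came from separate cultures. The p-values therefore measure the spread between these samples, which may be technical.

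Cells prepare DNA for copying and copy it in separate phases of the cycle. In G1, the origin recognition complex (Orc1, Orc6), Cdc6 and Cdt1 load the Mcm2-7 ring onto DNA, which licenses an origin. In S phase, Mcm10, Cdc45 and the GINS proteins turn the ring into a moving helicase, primase and the polymerases copy both strands, and the Pcna clamp, placed by the RFC loader, holds the polymerases on DNA. Many of these genes are transcribed late in G1 under E2F factors, which cyclin E with Cdk2 helps to release from the retinoblastoma protein. Their mRNA levels are widely used as a sign of cells entering S phase, and proliferating tumour lines such as 4T1 express them strongly.

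Promoter sequences are shown for 6 members from 4 roles, to let the letters of the E2F-type motif be seen where they stand. They are the 200 bases before an annotated transcription start, from RefSeq on build GRCm38.p6. Each is written 5' to 3' along the gene, with matches to the motif in capitals. All 6 hold a match, and a gene with several windows is shown by the one with most matches. *Uhrf1* has 2 windows, and its other one (chr17:56303087-56303386) holds no match. The windows are *Orc1* (chr4:108579254-108579453, plus strand), *Cdc6* (chr11:98907951-98908150, plus strand), *Mcm5* (chr8:75109309-75109508, plus strand), *Mcm6* (chr1:128359706-128359905, minus strand), *Rfc3* (chr5:151651209-151651408, minus strand) and *Uhrf1* (chr17:56304113-56304312, plus strand).
Orc1: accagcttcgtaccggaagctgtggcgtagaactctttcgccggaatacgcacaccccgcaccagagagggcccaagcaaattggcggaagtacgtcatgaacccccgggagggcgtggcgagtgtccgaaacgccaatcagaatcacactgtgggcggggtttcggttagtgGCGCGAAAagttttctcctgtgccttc
Cdc6: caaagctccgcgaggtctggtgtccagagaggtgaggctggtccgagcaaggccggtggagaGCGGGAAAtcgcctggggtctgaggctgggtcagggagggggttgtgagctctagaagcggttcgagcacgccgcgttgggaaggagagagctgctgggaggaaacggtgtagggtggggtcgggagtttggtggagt
Mcm5: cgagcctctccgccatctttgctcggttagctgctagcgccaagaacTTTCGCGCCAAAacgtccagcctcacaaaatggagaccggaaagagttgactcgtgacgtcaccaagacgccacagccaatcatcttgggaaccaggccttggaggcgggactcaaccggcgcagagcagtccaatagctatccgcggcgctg
Mcm6: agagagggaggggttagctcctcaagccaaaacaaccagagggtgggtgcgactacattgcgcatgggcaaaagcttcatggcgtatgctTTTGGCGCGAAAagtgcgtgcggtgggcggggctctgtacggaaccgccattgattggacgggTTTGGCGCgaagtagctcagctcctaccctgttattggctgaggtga
Rfc3: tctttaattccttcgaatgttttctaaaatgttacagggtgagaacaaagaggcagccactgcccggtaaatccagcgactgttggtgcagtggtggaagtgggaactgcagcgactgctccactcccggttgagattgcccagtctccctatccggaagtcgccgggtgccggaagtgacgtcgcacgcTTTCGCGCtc
Uhrf1: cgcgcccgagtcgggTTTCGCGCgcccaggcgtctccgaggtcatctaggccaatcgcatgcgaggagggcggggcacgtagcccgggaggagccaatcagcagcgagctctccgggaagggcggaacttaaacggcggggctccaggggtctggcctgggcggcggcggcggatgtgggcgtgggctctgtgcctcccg

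The letters searched as E2F-type were TTTCCCGC, TTTCGCGC, TTTGCCGC and TTTGGCGC on both strands, in windows from 250 bases before to 50 after the start. In *Mcm5* and *Mcm6* a match on one strand overlaps a match on the other, so their capitals run on. *Mcm6* holds 3 matches in the stretch shown, *Mcm5* holds 2 and each of the other 4 holds 1. A window was found for 31 of the 37 members. *Mcm4*, *Gins1*, *Gins2*, *Pole*, *Rfc2* and *Ccne2* had none in the table. A gene counted if any of its windows held the letters, and 26 of the 31 had only 1 window. Of the 31, 14 held E2F-type letters (45.2%), against 19 of 69 other replication pathway genes (27.5%), 1 of 26 mitosis genes (3.85%) and 704 of 27025 genes in all (2.6%). The 14 are *Orc1*, *Cdc6*, *Cdt1*, *Mcm3*, *Mcm5*, *Mcm6*, *Mcm7*, *Pola1*, *Pold1*, *Rfc3*, *Lig1*, *Uhrf1*, *E2f2* and *Cdk2*. Counted by window, 14 of 37 member windows (37.8%) and 2.26% of all windows held the letters.

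Other letters were spread differently. CCAAT, read on both strands, stood in a window of 61.3% of members, 73.1% of mitosis genes and 41.1% of all genes. TTTGAA, the core of the CHR element known from mitosis gene promoters, stood in that of 12.9% of members, 73.1% of mitosis genes and 20.2% of all genes. The E-box CANNTG, the kind of site that Twist1 binds, stood in that of 64.5% of members and 75% of all genes. Of its narrower forms, CATATG is its own reverse complement, while CATCTG reads as its partner CAGATG on the opposite strand. At least 1 of these forms stood in that of 12.9% of members and 22.6% of all genes. These are counts of letters. They are not binding sites, and the arrays do not read binding.

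**Figure D1:**
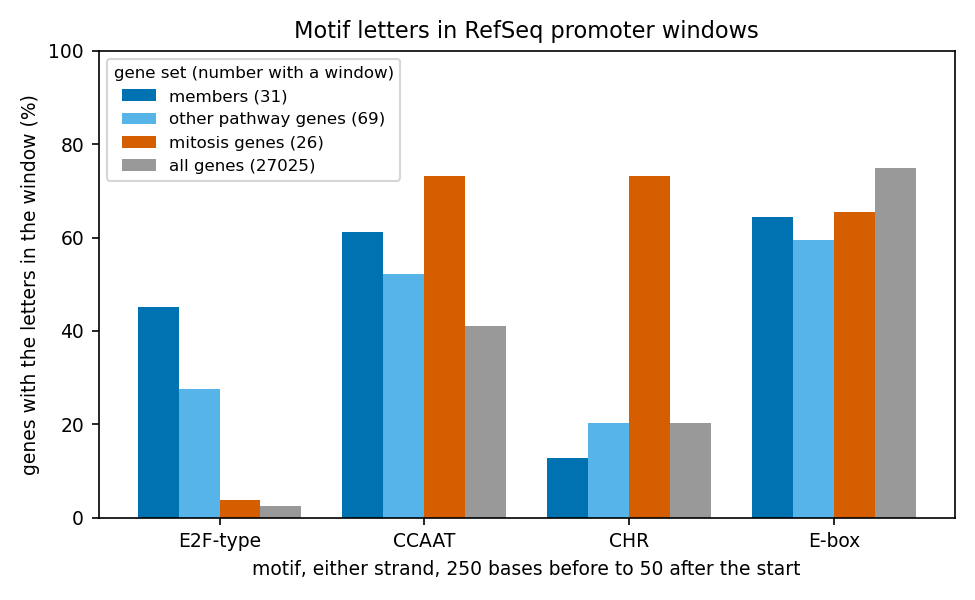
Share of genes with any RefSeq promoter window (250 bases before to 50 after the start) holding each motif on either strand, in percent. Sets are the replication members (31 genes with a window), other pathway genes (69), mitosis genes (26) and all genes (27025). E2F-type letters were found for 45.2% of members and 2.6% of all genes, while the CHR letters were found for 73.1% of mitosis genes and 12.9% of members.

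Array medians lay between 6.57 and 6.72 and maxima between 13.90 and 14.02 on the log2 scale, and arrays correlated at 0.997 to 0.999 within a line and 0.975 to 0.987 between lines. Twist1 itself averaged 9.03 on the parental and 7.35 on the Tw1KD arrays, a difference of -1.69 ± 0.080 (SE, n = 3 each, limma adjusted p = 7.1e-10). The wild-type arrays averaged 8.33, the S42A arrays 8.70 and the S42D arrays 8.9996, and it was not tested whether the introduced transcripts are read by this probe set. Of 9 mammary epithelial marker genes, 5 were called higher and 1 lower in Tw1KD than in parental cells, and 7, 7 and 6 were called lower than in Tw1KD in the wild-type, S42A and S42D lines, while *Krt8* was called higher in each of the 3 and *Krt5* in the S42A line. The shares of all genes called in these 4 comparisons were 36.3%, 48%, 42.5% and 43.4%. Median levels over the epithelial list ranged from 9.99 to 10.12 in parental arrays, 11.08 to 11.12 in Tw1KD, 8.52 in wild-type, 6.57 to 6.66 in S42A and 6.79 to 7.45 in S42D arrays. Medians over 7 leukocyte and 5 endothelial markers stayed between 5.08 and 5.56 on every array, and those of 7 fibroblast markers between 7.04 and 7.52. The brightest of these, *Pdgfra*, averaged 11.29 in parental cells, 9.60 in Tw1KD, 9.83 in wild-type, 10.85 in S42A and 11.38 in S42D arrays. One endothelial marker, *Cdh5*, was called higher in every derived line than in parental cells and reached 10.70 in the S42D line. The part of these shifts in the values below was not tested.

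The replication members were bright and tightly measured. Their means over all arrays ran from 7.49 (*E2f2*) to 12.47 (*Pcna*), with a median of 10.26, where the median gene stood at 7.28. The median SD within a line was 0.044 over members and 0.066 over all genes. The gap between a member's highest and lowest line mean had a median of 1.04 and ran from 0.25 to 2.14, against a median gap of 0.36 over all genes. The wild-type line was the highest of the 5 lines for 27 members, the S42A line for 7 (*Pole*, *Rfc2*, *Rfc5*, *Rrm1*, *Tyms*, *Tk1* and *Ccne1*), the S42D line for *Pold1* and *Lig1*, and Tw1KD for *Cdt1*. Parental cells were the lowest line for 28 members. Over all genes the wild-type line was highest for 19.1% and parental cells lowest for 15%.

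**Figure D2:**
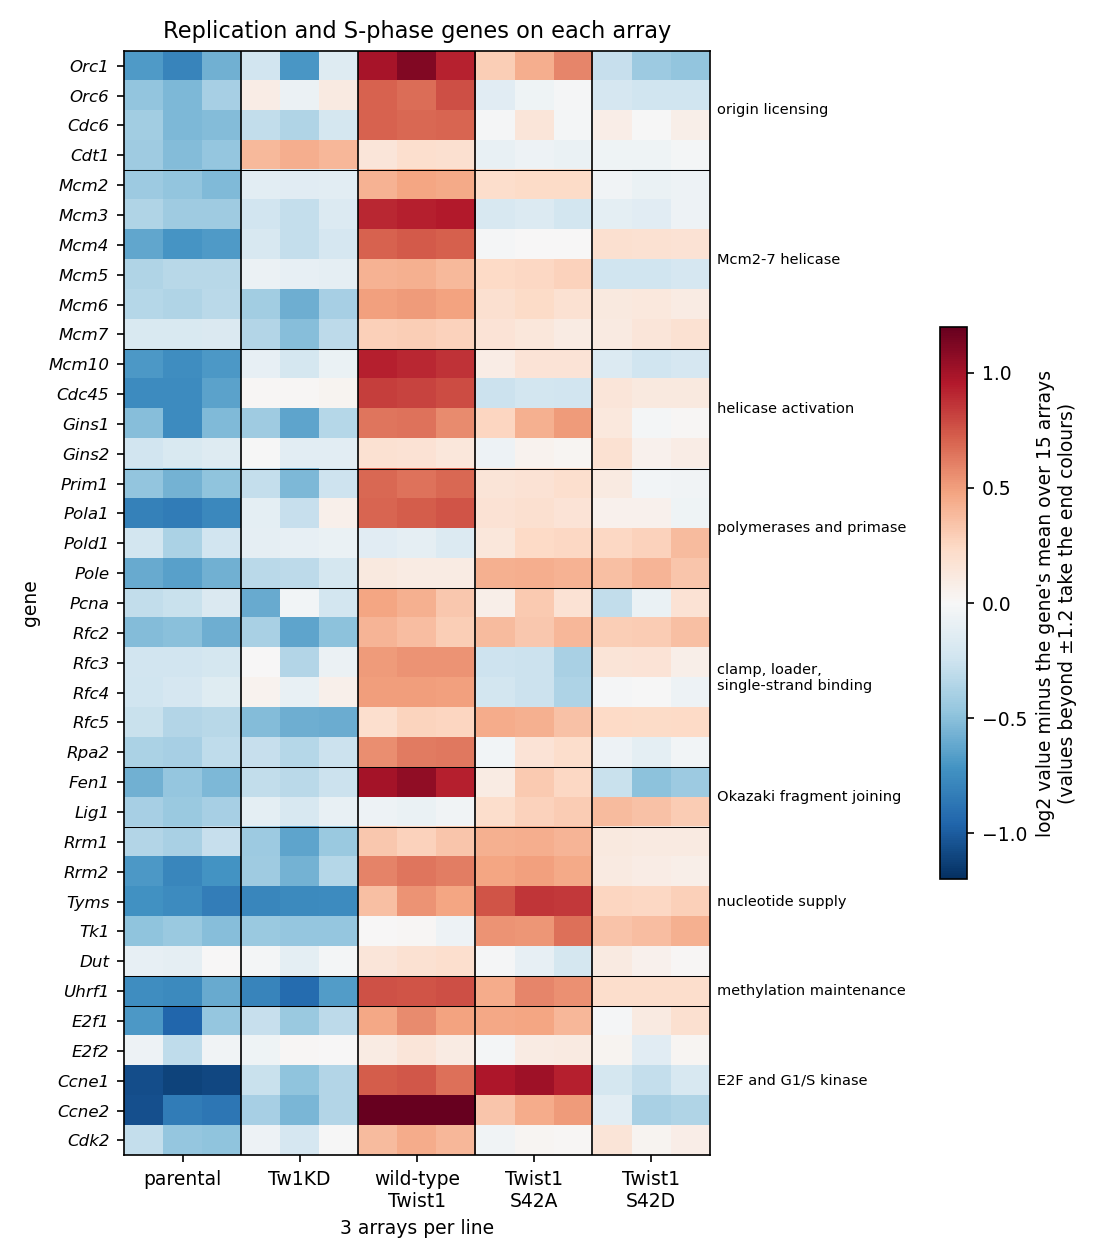
Log2 value of each of the 37 genes (rows, grouped by role) on each of the 15 arrays (columns, 3 per line), minus the gene's mean over all arrays; red is above and blue below that mean. The wild-type line is red for most rows and parental cells are blue. In the rows for Pold1, Lig1 and Tk1 the wild-type line averages below the gene's mean.

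A member was called in a comparison where limma's moderated test, adjusted by Benjamini-Hochberg over all 19937 genes, gave an adjusted p under 0.05. Between Tw1KD and parental cells, 20 members were called higher and 4 lower (*Mcm6*, *Mcm7*, *Rfc5* and *Rrm1*), with a median difference of 0.20 in log2, against 36.3% of all genes called (19.9% higher and 16.4% lower) and an all-gene median of 0.0051. Arrays of the 2 lines did not overlap for 21 members upward and 4 downward, as for 22.3% and 19.2% of all genes. No member reached a 2-fold change there, as 2.65% of all genes did. In the wild-type line against Tw1KD, 33 members were called higher and only *Cdt1* lower, with a median of 0.81, against 48% of all genes called (23.5% higher and 24.5% lower) and an all-gene median of -0.061. There 11 members changed at least 2-fold, as did 4.84% of all genes.

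The S42A line against Tw1KD had 27 members higher and 3 lower (*Cdc45*, *Cdt1* and *Rfc4*), with a median of 0.41, against 42.5% of all genes called (22.8% higher and 19.7% lower) and an all-gene median of -0.013. The S42D line against Tw1KD had 23 higher and 3 lower (*Cdt1*, *Mcm5* and *Orc6*), with a median of 0.22, against 43.4% called (21.7% in each direction) and an all-gene median of -0.045. These 3 comparisons share the Tw1KD arrays, so their values are not independent of each other. In all 3 lines, 16 members were called higher than in Tw1KD (10.6% of all genes). They are *Cdc6*, *Mcm4*, *Mcm6*, *Mcm7*, *Gins1*, *Prim1*, *Pole*, *Rfc2*, *Rfc5*, *Rpa2*, *Rrm1*, *Rrm2*, *Tyms*, *Tk1*, *Uhrf1* and *E2f1*. RNA was pooled from many cells, so more cells in S phase and more of each mRNA per cell cannot be told apart.

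Against parental cells, the wild-type line had all 37 members called higher, the S42A line 34 and the S42D line 32, and none was called lower in any of the 3. A set of 30 was called higher in all 3 (8.88% of all genes), as were 27 of 28 mitosis genes. The medians were 0.93, 0.68 and 0.50, with 49%, 40.3% and 37% of all genes called in the same comparisons (25%, 22.6% and 19.8% higher). *Rfc3*, *Rfc4* and *Dut* were not called in the S42A line, nor *Orc1*, *Pcna*, *Fen1*, *Dut* and *E2f2* in the S42D line. A second *Pcna* probe set, adjusted over all probe sets, called the S42D line higher than parental cells by 0.38 (limma adjusted p = 4.5e-06). In the wild-type line the smallest rise was that of *Pold1*, 0.14 ± 0.051, which lost its call when single arrays were left out (0.09 without parental replicate 2, 0.14 without wild-type replicate 1, 0.13 without wild-type replicate 2 and 0.15 without wild-type replicate 3), under quantile and loess normalization and with only these lines fitted.

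**Figure D3:**
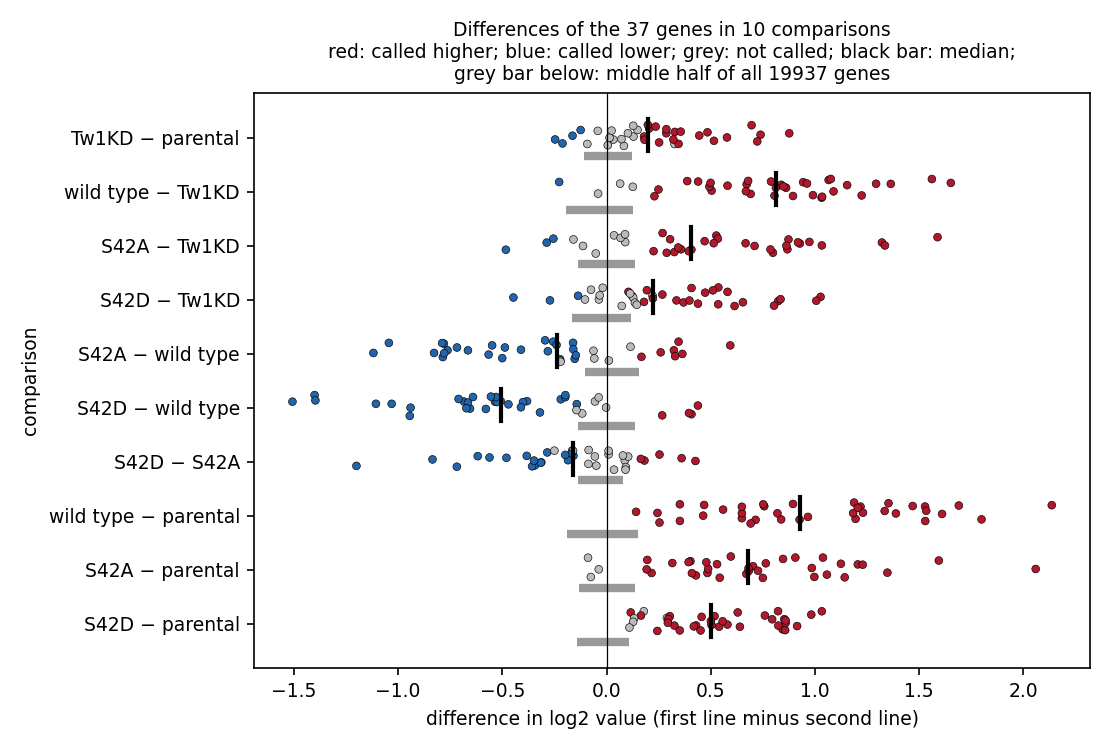
Difference in log2 value of each of the 37 genes (points) in each of 10 comparisons (rows, first line minus second), with red called higher, blue called lower, grey not called, a black bar at the median and a grey bar from the lower to the upper quartile of all 19937 genes. The medians are 0.20 for Tw1KD over parental cells and 0.81, 0.41 and 0.22 for the wild-type, S42A and S42D lines over Tw1KD.

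The origin licensing genes did not move as a block. *Orc1*, *Orc6* and *Cdc6* were highest in the wild-type line, while *Cdt1*, whose protein brings the helicase ring to origins, was highest in Tw1KD cells. *Orc1* read 7.32, 7.21 and 7.42 on the parental arrays, 7.77, 7.31 and 7.85 on the Tw1KD arrays, 8.99, 9.11 and 8.92 on the wild-type arrays, 8.30, 8.44 and 8.59 on the S42A arrays and 7.73, 7.56 and 7.53 on the S42D arrays. The wild-type arrays stood above all others, and the S42D arrays overlapped those of Tw1KD. Orc1, the ATP-binding subunit of the recognition complex, was higher in the wild-type line than in Tw1KD by 1.36 ± 0.12 (limma adjusted p = 2.8e-07) and in the S42A line by 0.80 ± 0.12 (limma adjusted p = 6.9e-05). Between Tw1KD and parental cells it differed by 0.33 ± 0.12 and was not called (limma adjusted p = 0.051). Tw1KD replicate 2 stood apart for this gene, and without it the difference was 0.49 and called, as it was without parental replicate 3 (0.38), with the array medians centred (0.36), with quantile normalization (0.35), with dim genes left out (0.33) and with array weights (0.43).

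*Cdc6* read 8.30, 8.18 and 8.19 on the parental arrays, 8.42, 8.36 and 8.51 on the Tw1KD arrays, 9.43, 9.41 and 9.42 on the wild-type arrays, 8.70, 8.86 and 8.70 on the S42A arrays and 8.80, 8.71 and 8.79 on the S42D arrays. Cdc6, the loader that works with the recognition complex, had the wild-type arrays above all others, the overlapping S42A and S42D arrays below them, then the Tw1KD arrays and, without overlap, the parental arrays lowest. It was higher in the wild-type line than in Tw1KD by 0.99 ± 0.055 (limma adjusted p = 2e-09), and in the S42A and S42D lines by 0.33 ± 0.055 and 0.34 ± 0.055. *Orc6* read 9.70, 9.62 and 9.77 on the parental arrays, 10.26, 10.10 and 10.28 on the Tw1KD arrays, 10.87, 10.84 and 10.94 on the wild-type arrays, 10.03, 10.11 and 10.15 on the S42A arrays and 9.96, 9.93 and 9.92 on the S42D arrays. Here Tw1KD arrays lay between the wild-type arrays and those of the S42D line. *Orc6*, the smallest subunit of the recognition complex, was higher in Tw1KD than in parental cells by 0.52 ± 0.055 (limma adjusted p = 3.3e-06), higher again in the wild-type line, and lower than in Tw1KD in the S42D line by -0.27 ± 0.055 (limma adjusted p = 0.00094).

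*Cdt1* read 10.76, 10.67 and 10.72 on the parental arrays, 11.57, 11.62 and 11.58 on the Tw1KD arrays, 11.34, 11.39 and 11.38 on the wild-type arrays, 11.10, 11.13 and 11.11 on the S42A arrays and 11.14, 11.13 and 11.17 on the S42D arrays. No array of any other line reached a Tw1KD array. *Cdt1* had the largest rise of any member from parental to Tw1KD cells, 0.88 ± 0.037 (limma adjusted p = 1.9e-10), and was lower than in Tw1KD in the wild-type line by -0.23 ± 0.037 (limma adjusted p = 0.00011), in the S42A line by -0.48 ± 0.037 (limma adjusted p = 5.8e-08) and in the S42D line by -0.45 ± 0.037 (limma adjusted p = 1.3e-07). The wild-type call was lost when each array was centred on its median.

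All 6 genes of the Mcm2-7 ring, the motor of the replicative helicase, were called higher in the wild-type line than in Tw1KD (23.5% of all genes). All 6 were called lower in both mutant lines than in the wild-type line (14.3% of all genes). Between Tw1KD and parental cells they split, with 4 called higher and 2 lower, where 19.9% of all genes were called higher and 16.4% lower. *Mcm3* read 10.61, 10.55 and 10.55 on the parental arrays, 10.75, 10.69 and 10.81 on the Tw1KD arrays, 11.88, 11.91 and 11.93 on the wild-type arrays, 10.78, 10.82 and 10.76 on the S42A arrays and 10.86, 10.84 and 10.92 on the S42D arrays. *Mcm4* read 10.62, 10.54 and 10.57 on the parental arrays, 11.05, 10.96 and 11.05 on the Tw1KD arrays, 11.95, 11.98 and 11.96 on the wild-type arrays, 11.23, 11.26 and 11.25 on the S42A arrays and 11.44, 11.43 and 11.42 on the S42D arrays. For *Mcm3* the wild-type line stood alone and the S42A arrays overlapped those of Tw1KD, whereas *Mcm4* had a step in every line. *Mcm3* was higher in the wild-type line than in Tw1KD by 1.15 ± 0.041 (limma adjusted p = 2.4e-11), and lower in the S42A line than in the wild-type line by -1.12 ± 0.041 (limma adjusted p = 5.5e-11), the largest fall of any member there. *Mcm4* was higher than in Tw1KD by 0.94 ± 0.037, 0.23 ± 0.037 and 0.41 ± 0.037 in the wild-type, S42A and S42D lines.

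*Mcm6* read 11.04, 11.01 and 11.05 on the parental arrays, 10.96, 10.79 and 10.98 on the Tw1KD arrays, 11.87, 11.88 and 11.86 on the wild-type arrays, 11.56, 11.60 and 11.56 on the S42A arrays and 11.49, 11.50 and 11.47 on the S42D arrays. *Mcm7* read 11.57, 11.57 and 11.58 on the parental arrays, 11.40, 11.24 and 11.44 on the Tw1KD arrays, 12.04, 12.05 and 12.03 on the wild-type arrays, 11.92, 11.89 and 11.85 on the S42A arrays and 11.86, 11.89 and 11.94 on the S42D arrays. Both were lowest in Tw1KD cells, where replicate 2 was the lowest array. *Mcm7* was lower in Tw1KD than in parental cells by -0.21 ± 0.047 (limma adjusted p = 0.0024). *Mcm6* differed by -0.12 ± 0.045, a call at the edge of the threshold that was lost when single arrays were left out (-0.12 without parental replicate 1, -0.14 without parental replicate 2, -0.11 without parental replicate 3 and -0.07 without Tw1KD replicate 2) and with the array medians centred, all probe sets tested, array weights or only these lines fitted. Both were higher than in Tw1KD in each re-expressing line, *Mcm6* by 0.96 ± 0.045, 0.67 ± 0.045 and 0.58 ± 0.045 in the wild-type, S42A and S42D lines. *Mcm5* read 10.78, 10.81 and 10.81 on the parental arrays, 11.07, 11.05 and 11.03 on the Tw1KD arrays, 11.56, 11.57 and 11.53 on the wild-type arrays, 11.38, 11.39 and 11.42 on the S42A arrays and 10.90, 10.90 and 10.94 on the S42D arrays. The S42D arrays of *Mcm5* lay between the parental and Tw1KD arrays, while the S42A arrays lay above Tw1KD. *Mcm5* was 0.34 ± 0.033 higher in the S42A line and -0.14 ± 0.033 (limma adjusted p = 0.0038) in the S42D line relative to Tw1KD. The second call was lost with the array medians centred or with only these lines fitted. *Mcm2*, the remaining subunit, was higher in the wild-type and S42A lines than in Tw1KD by 0.58 ± 0.036 and 0.36 ± 0.036.

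Among the genes that turn the loaded ring into a moving helicase, *Mcm10* and *Cdc45* had wide ranges and *Gins1* a wide range with more scatter. *Gins2* had the narrowest range, near the median gap of 0.36 over all genes. *Mcm10* read 9.11, 9.06 and 9.12 on the parental arrays, 9.71, 9.60 and 9.72 on the Tw1KD arrays, 10.74, 10.72 and 10.68 on the wild-type arrays, 9.90, 9.97 and 9.97 on the S42A arrays and 9.64, 9.57 and 9.61 on the S42D arrays. *Cdc45* read 9.55, 9.55 and 9.66 on the parental arrays, 10.32, 10.32 and 10.34 on the Tw1KD arrays, 11.14, 11.12 and 11.09 on the wild-type arrays, 10.05, 10.09 and 10.07 on the S42A arrays and 10.45, 10.42 and 10.42 on the S42D arrays. For both genes Tw1KD stood above parental cells and the wild-type line above everything. *Mcm10*, needed to activate the helicase, was higher in Tw1KD than in parental cells by 0.58 ± 0.044 (limma adjusted p = 9.2e-08) and in the wild-type line than in Tw1KD by 1.03 ± 0.044 (limma adjusted p = 1.2e-10), and its S42D arrays overlapped those of Tw1KD. Cdc45, a stable part of the working helicase, was lower in the S42A line than in Tw1KD by -0.25 ± 0.038 (limma adjusted p = 5.9e-05). In the S42D line it was higher by 0.11 ± 0.038, a call that was lost when any one array of either line was left out (0.10 without Tw1KD replicate 1, 0.10 without Tw1KD replicate 2, 0.11 without Tw1KD replicate 3, 0.09 without S42D replicate 1, 0.11 without S42D replicate 2 and 0.11 without S42D replicate 3), with quantile normalization and with only these lines fitted. *Gins1* was higher in the wild-type, S42A and S42D lines than in Tw1KD by 1.09 ± 0.087, 0.87 ± 0.087 and 0.51 ± 0.087, and the line means of *Gins2* spanned 0.35.

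The polymerase genes fell into a pair that followed the wild-type line and a pair that did not. *Prim1*, the catalytic primase subunit that starts each strand, and *Pola1*, the polymerase that extends its primers, were highest in the wild-type line. *Pold1* and *Pole*, the catalytic subunits of the polymerases that copy most of the genome, were higher in the S42A and S42D lines than in the wild-type line. *Pola1* read 8.63, 8.61 and 8.67 on the parental arrays, 9.32, 9.17 and 9.50 on the Tw1KD arrays, 10.14, 10.17 and 10.20 on the wild-type arrays, 9.62, 9.64 and 9.61 on the S42A arrays and 9.49, 9.49 and 9.40 on the S42D arrays. *Prim1* read 9.34, 9.25 and 9.32 on the parental arrays, 9.53, 9.27 and 9.56 on the Tw1KD arrays, 10.50, 10.46 and 10.50 on the wild-type arrays, 9.97, 9.98 and 10.01 on the S42A arrays and 9.91, 9.78 and 9.77 on the S42D arrays. In both genes the wild-type arrays were above all others, and parental and Tw1KD arrays overlapped for *Prim1* alone. *Pola1* was higher in Tw1KD than in parental cells by 0.70 ± 0.065 (limma adjusted p = 7.8e-07) and in the wild-type line than in Tw1KD by 0.84 ± 0.065 (limma adjusted p = 6.4e-08). *Prim1* was higher in the wild-type line than in Tw1KD by 1.03 ± 0.067 (limma adjusted p = 9.6e-09) and in the S42A and S42D lines by 0.53 ± 0.067 and 0.37 ± 0.067.

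*Pold1* read 9.36, 9.21 and 9.35 on the parental arrays, 9.47, 9.49 and 9.51 on the Tw1KD arrays, 9.45, 9.48 and 9.43 on the wild-type arrays, 9.72, 9.83 and 9.84 on the S42A arrays and 9.84, 9.87 and 9.96 on the S42D arrays. *Pole* read 9.92, 9.87 and 9.94 on the parental arrays, 10.20, 10.21 and 10.31 on the Tw1KD arrays, 10.64, 10.62 and 10.62 on the wild-type arrays, 10.95, 10.96 and 10.94 on the S42A arrays and 10.89, 10.93 and 10.86 on the S42D arrays. Wild-type arrays of *Pold1* overlapped those of Tw1KD, and all S42A and S42D arrays of both genes lay above every wild-type array. *Pold1* was higher than in the wild-type line by 0.35 ± 0.051 (limma adjusted p = 6.8e-05) in the S42A line and 0.44 ± 0.051 (limma adjusted p = 4.9e-06) in the S42D line, and was not called between the wild-type line and Tw1KD. Its rise from parental to Tw1KD cells, 0.18 ± 0.051, lost its call without 1 array (0.13 without parental replicate 2) and with only these lines fitted. *Pole* was higher than in the wild-type line by 0.32 ± 0.040 (limma adjusted p = 1.3e-05) and 0.27 ± 0.040 (limma adjusted p = 5.8e-05), and higher in the wild-type line than in Tw1KD by 0.39 ± 0.040.

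All 6 genes of the clamp, its loader and the single-strand binding protein were called higher in the wild-type line than in Tw1KD. Of all genes, 23.5% were. Between Tw1KD and parental cells *Rfc4* (higher) and *Rfc5* (lower) were called, a share of the 6 near the 36.3% of all genes called there. *Rfc5* read 11.17, 11.08 and 11.10 on the parental arrays, 10.92, 10.85 and 10.85 on the Tw1KD arrays, 11.63, 11.70 and 11.70 on the wild-type arrays, 11.88, 11.86 and 11.79 on the S42A arrays and 11.68, 11.67 and 11.67 on the S42D arrays. *Rpa2* read 9.19, 9.17 and 9.26 on the parental arrays, 9.30, 9.23 and 9.31 on the Tw1KD arrays, 10.12, 10.19 and 10.20 on the wild-type arrays, 9.54, 9.74 and 9.78 on the S42A arrays and 9.51, 9.46 and 9.54 on the S42D arrays. *Rfc5* was lowest in Tw1KD cells and *Rpa2* stepped down from the wild-type to the S42A and S42D lines. *Rfc5*, a small subunit of the clamp loader, was lower in Tw1KD than in parental cells by -0.25 ± 0.041 (limma adjusted p = 0.00021) and higher than in Tw1KD by 0.81 ± 0.041, 0.97 ± 0.041 and 0.80 ± 0.041 in the wild-type, S42A and S42D lines. Its higher value in the S42A line than in the wild-type line, 0.17 ± 0.041, was not called with the array medians centred. *Rpa2*, a subunit of the protein that coats single-stranded DNA, was higher in the wild-type line than in Tw1KD by 0.89 ± 0.058 (limma adjusted p = 9.8e-09) and in the S42A and S42D lines by 0.41 ± 0.058 and 0.22 ± 0.058.

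*Rfc4* read 11.93, 11.97 and 12.02 on the parental arrays, 12.21, 12.08 and 12.23 on the Tw1KD arrays, 12.67, 12.67 and 12.66 on the wild-type arrays, 11.95, 11.91 and 11.80 on the S42A arrays and 12.15, 12.17 and 12.10 on the S42D arrays. *Rfc4*, another small loader subunit, had its 3 S42A arrays below every Tw1KD array and its wild-type arrays above them. It was higher in the wild-type line than in Tw1KD by 0.49 ± 0.050 (limma adjusted p = 1e-06) and lower in the S42A line by -0.29 ± 0.050 (limma adjusted p = 0.00023). *Rfc3* was higher in the wild-type line by 0.67 ± 0.073 and lower in the S42A than in the wild-type line by -0.83 ± 0.073. *Rfc2* was higher than in Tw1KD by about the same amount in each re-expressing line, 0.86 ± 0.057, 0.87 ± 0.057 and 0.82 ± 0.057, and was called in none of the comparisons among the 3. *Pcna* was the brightest member but the least tightly measured, with SE 0.13 for its differences. Its rise in the wild-type line over Tw1KD was 0.69 ± 0.13 (limma adjusted p = 0.00048). The second *Pcna* probe set, with SE 0.036 and adjusted over all probe sets, gave 0.65 for the same difference. It called the S42D line higher than Tw1KD by 0.28 (limma adjusted p = 3.7e-05), which the brightest probe set did not. The same held for the S42A line below the wild-type line, by -0.24 (limma adjusted p = 0.00016).

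The 2 genes of Okazaki fragment joining went different ways. *Fen1*, the nuclease that trims the flap at each fragment, was highest in the wild-type line. *Lig1*, the ligase that seals the nick, was highest in the S42D line. *Fen1* read 8.05, 8.16 and 8.09 on the parental arrays, 8.34, 8.30 and 8.37 on the Tw1KD arrays, 9.63, 9.70 and 9.56 on the wild-type arrays, 8.73, 8.95 and 8.87 on the S42A arrays and 8.36, 8.14 and 8.20 on the S42D arrays. *Lig1* read 9.20, 9.15 and 9.20 on the parental arrays, 9.48, 9.41 and 9.51 on the Tw1KD arrays, 9.53, 9.52 and 9.55 on the wild-type arrays, 9.81, 9.88 and 9.90 on the S42A arrays and 9.97, 9.94 and 9.90 on the S42D arrays. *Fen1* arrays of the wild-type line lay above all others and its S42D arrays overlapped those of Tw1KD. *Fen1* was higher in the wild-type line than in Tw1KD by 1.29 ± 0.065 (limma adjusted p = 7.4e-10) and in the S42A line by 0.51 ± 0.065 (limma adjusted p = 1.2e-05), and lower in the S42D than in the wild-type line by -1.40 ± 0.065 (limma adjusted p = 3.6e-10). *Lig1* was higher in Tw1KD than in parental cells by 0.29 ± 0.040 (limma adjusted p = 4.8e-05), and higher than in the wild-type line by 0.33 ± 0.040 (S42A) and 0.41 ± 0.040 (S42D). Its difference between the wild-type line and Tw1KD was 0.07 ± 0.040 and was called only with the array medians centred.

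Of the roles with more than 1 gene, nucleotide supply had the highest median over Tw1KD in both mutant lines. *Tyms*, *Tk1*, *Rrm1* and *Rrm2* were called higher than in Tw1KD in all 3 re-expressing lines, and the median over the 5 genes was 0.81, 0.93 and 0.61 in the wild-type, S42A and S42D lines. *Tyms* read 9.37, 9.35 and 9.27 on the parental arrays, 9.32, 9.34 and 9.35 on the Tw1KD arrays, 10.47, 10.64 and 10.57 on the wild-type arrays, 10.86, 10.96 and 10.95 on the S42A arrays and 10.36, 10.35 and 10.38 on the S42D arrays. *Tk1* read 9.997, 10.03 and 9.97 on the parental arrays, 10.04, 10.01 and 10.02 on the Tw1KD arrays, 10.48, 10.49 and 10.42 on the wild-type arrays, 11.02, 11.01 and 11.14 on the S42A arrays and 10.82, 10.85 and 10.91 on the S42D arrays. Parental and Tw1KD arrays overlapped for both genes, and neither was called between those lines. The S42A arrays were the highest for both. *Tyms*, thymidylate synthase, was higher than in Tw1KD by 1.22 ± 0.048 (limma adjusted p = 6.4e-11) with wild-type Twist1, 1.59 ± 0.048 (limma adjusted p = 3.9e-12) with S42A and 1.03 ± 0.048 (limma adjusted p = 4e-10) with S42D. *Tk1*, the thymidine kinase of the salvage route, was higher by 0.44 ± 0.043, 1.03 ± 0.043 and 0.84 ± 0.043 in the same lines, and its second probe set gave 0.32, 0.95 and 0.79.

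*Rrm2* read 10.87, 10.78 and 10.84 on the parental arrays, 11.14, 10.99 and 11.22 on the Tw1KD arrays, 12.16, 12.20 and 12.18 on the wild-type arrays, 12.03, 12.05 and 12.02 on the S42A arrays and 11.67, 11.65 and 11.63 on the S42D arrays. *Rrm1* read 11.21, 11.17 and 11.28 on the parental arrays, 11.12, 10.93 and 11.12 on the Tw1KD arrays, 11.88, 11.83 and 11.89 on the wild-type arrays, 11.99, 11.99 and 11.97 on the S42A arrays and 11.68, 11.67 and 11.66 on the S42D arrays. The 2 subunits of ribonucleotide reductase, the enzyme that makes deoxynucleotides, differed between Tw1KD and parental cells. *Rrm2*, the subunit whose level limits the enzyme in S phase, was higher in Tw1KD by 0.29 ± 0.050 (limma adjusted p = 0.00033). *Rrm1* was lower by -0.16 ± 0.050, a call that was lost when single arrays were left out (-0.13 without parental replicate 3 and -0.10 without Tw1KD replicate 2), with the array medians centred and with only these lines fitted. Over Tw1KD, *Rrm2* was higher by 1.07 ± 0.050, 0.92 ± 0.050 and 0.54 ± 0.050 in the wild-type, S42A and S42D lines, and *Rrm1* by 0.81 ± 0.050, 0.93 ± 0.050 and 0.61 ± 0.050. *Dut*, which removes dUTP, had line means within 0.28 of each other and was called higher than in Tw1KD in the wild-type line only (0.23 ± 0.053).

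Uhrf1 reads hemimethylated DNA behind the fork and recruits the maintenance methyltransferase. *Uhrf1* read 9.76, 9.74 and 9.90 on the parental arrays, 9.71, 9.58 and 9.84 on the Tw1KD arrays, 11.27, 11.27 and 11.28 on the wild-type arrays, 10.95, 11.09 and 11.06 on the S42A arrays and 10.72, 10.72 and 10.72 on the S42D arrays. Parental and Tw1KD arrays overlapped, and the 3 re-expressing lines each lay above them without overlap. *Uhrf1* was higher than in Tw1KD by 1.56 ± 0.061 (limma adjusted p = 6e-11) with wild-type Twist1, 1.32 ± 0.061 (limma adjusted p = 3.1e-10) with S42A and 1.01 ± 0.061 (limma adjusted p = 5.9e-09) with S42D, and it was not called between Tw1KD and parental cells.

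The cyclin E genes had the widest ranges of all members, and they differed from each other in the mutant lines. *Ccne2* read 7.60, 7.82 and 7.78 on the parental arrays, 8.25, 8.10 and 8.30 on the Tw1KD arrays, 9.87, 9.87 and 9.87 on the wild-type arrays, 8.98, 9.10 and 9.16 on the S42A arrays and 8.52, 8.27 and 8.29 on the S42D arrays. *Ccne1* read 8.84, 8.79 and 8.81 on the parental arrays, 9.64, 9.42 and 9.55 on the Tw1KD arrays, 10.63, 10.65 and 10.57 on the wild-type arrays, 10.87, 10.92 and 10.83 on the S42A arrays and 9.69, 9.62 and 9.71 on the S42D arrays. *Ccne2* was highest in the wild-type line and *Ccne1* in the S42A line, and in both genes the S42D arrays lay close to those of Tw1KD. *Ccne2* was higher in the wild-type line than in Tw1KD by 1.65 ± 0.078 (limma adjusted p = 4e-10) and than in parental cells by 2.14 ± 0.078, a 4.4-fold difference and the largest of any member. *Ccne1* was higher in the S42A line than in Tw1KD by 1.34 ± 0.053 (limma adjusted p = 5.5e-11) and than in parental cells by 2.06 ± 0.053. In the S42D line *Ccne2* differed from Tw1KD by 0.15 ± 0.078 and was not called, and *Ccne1* was at the threshold with 0.14 ± 0.053 (limma adjusted p = 0.051), called without single arrays (0.19 without Tw1KD replicate 1 and 0.17 without S42D replicate 2), with quantile or loess normalization and with dim genes left out. Both were already higher in Tw1KD than in parental cells, by 0.48 ± 0.078 and 0.72 ± 0.053.

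*E2f2* read 7.43, 7.18 and 7.45 on the parental arrays, 7.45, 7.51 and 7.50 on the Tw1KD arrays, 7.60, 7.64 and 7.59 on the wild-type arrays, 7.47, 7.59 and 7.60 on the S42A arrays and 7.52, 7.35 and 7.52 on the S42D arrays. *E2f2* was the dimmest member and was called in none of the 7 comparisons of a derived line with the line it came from or of the re-expressing lines with each other. *E2f1*, the activator best known for inducing S-phase genes, was higher in Tw1KD than in parental cells by 0.36 ± 0.096 (not called with only these lines fitted) and higher than in Tw1KD by 0.85 ± 0.096, 0.79 ± 0.096 and 0.44 ± 0.096 in the wild-type, S42A and S42D lines. *Cdk2*, the kinase partner of cyclin E, was higher in the wild-type line than in Tw1KD by 0.50 ± 0.061.

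**Figure D4:**
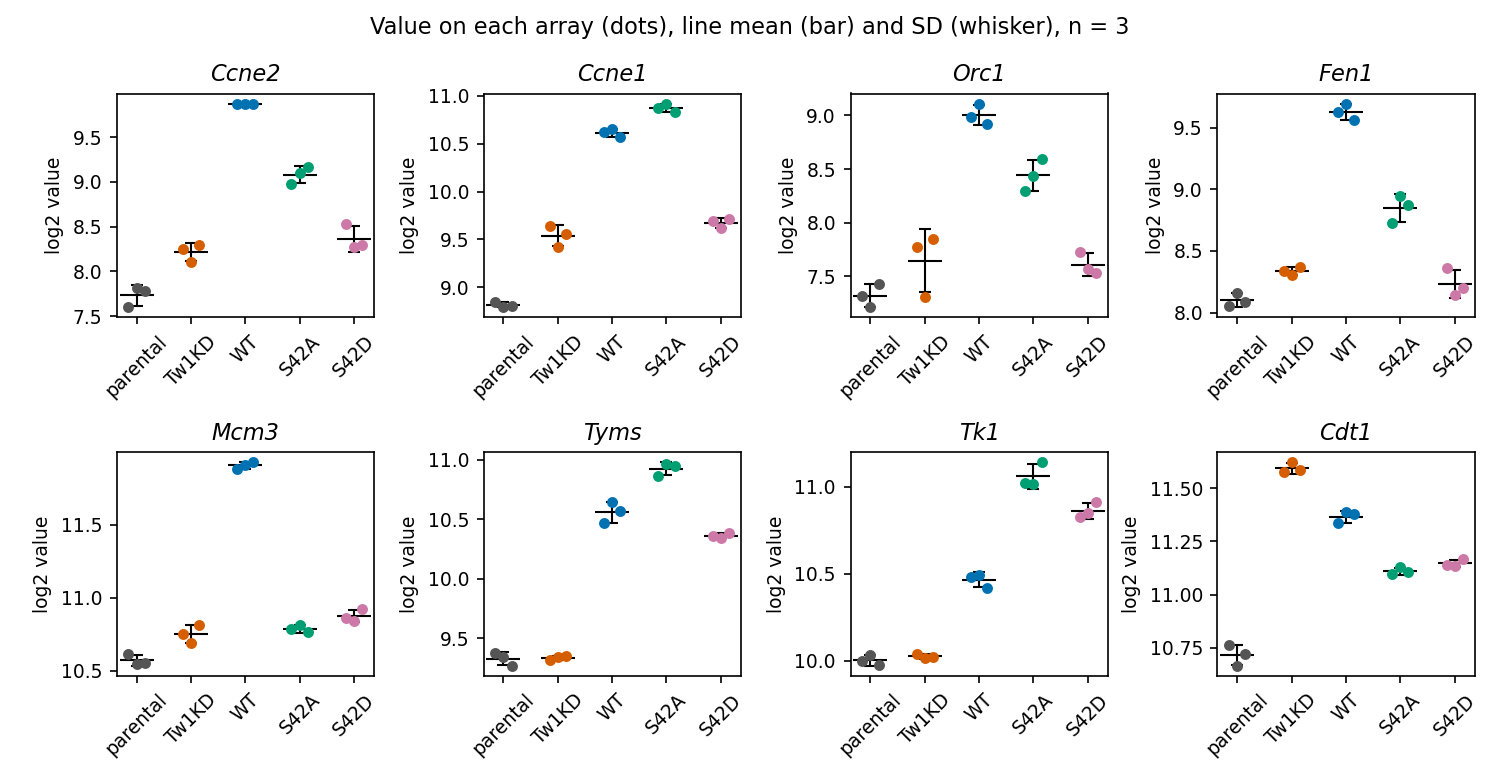
Log2 value on each array (dots) with the line mean (bar) and SD (whisker, n = 3) for 8 genes in parental, Tw1KD, wild-type (WT), S42A and S42D lines; each panel has its own axis and none starts at 0. Ccne2, Orc1, Fen1 and Mcm3 are highest in the wild-type line, Ccne1, Tyms and Tk1 in the S42A line and Cdt1 in Tw1KD cells.

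The 3 re-expressing lines were then compared with each other, which differ in residue 42 of the introduced Twist1. Twist1 itself was called higher than in the wild-type line by 0.37 in the S42A and 0.67 in the S42D line, and with 1 line per construct the residue, the Twist1 level and the line cannot be told apart. Against the wild-type line, 24 members were lower and 7 higher in the S42A line, with a median of -0.24 and 40% of all genes called (20% in each direction). In the S42D line 28 were lower and 4 higher, with a median of -0.51 and 43.3% of all genes called (20.7% higher and 22.6% lower). The 7 higher in the S42A line were *Pold1*, *Pole*, *Rfc5*, *Lig1*, *Tyms*, *Tk1* and *Ccne1*, and the 4 higher in the S42D line were *Pold1*, *Pole*, *Lig1* and *Tk1*. Those 4 were above the wild-type line in both mutant lines, as were 12.3% of all genes, and 22 members were below it in both, as were 14.3% of all genes. These 2 comparisons share the wild-type arrays. *Tk1* was the largest rise in the S42A line, 0.59 ± 0.043 (limma adjusted p = 6.1e-08).

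Between the 2 mutant lines, 17 members were lower and 5 higher in the S42D line, with a median of -0.16 and 36.1% of all genes called (17.1% higher and 19.1% lower). With cyclic loess normalization the split was 17 lower and 9 higher. The largest falls were those of *Ccne1*, -1.20 ± 0.053 (limma adjusted p = 3e-10), *Orc1*, -0.83 ± 0.12 (limma adjusted p = 6.5e-05), *Ccne2*, -0.72 ± 0.078 (limma adjusted p = 4e-06), and *Fen1*, -0.62 ± 0.065 (limma adjusted p = 2.9e-06). The 5 that were higher were *Rfc3* (0.43 ± 0.073), *Cdc45* (0.36 ± 0.038), *Rfc4* (0.25 ± 0.050), *Mcm4* (0.18 ± 0.037) and *Dut* (0.16 ± 0.053). The *Dut* call was lost when single arrays were left out (0.17 without S42A replicate 2, 0.11 without S42A replicate 3, 0.14 without S42D replicate 1 and 0.17 without S42D replicate 2), with the array medians centred and with only these lines fitted. None of the 4 polymerase and primase genes was called between the mutant lines.

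The wild-type line was called above each of the 4 other lines for 21 members (9.56% of all genes), and parental cells were called below each of the 4 other lines for 18 (4.81% of all genes). A fall in 2 called steps, from the wild-type to the S42A line and from the S42A to the S42D line, was found for 10 members (5.32% of all genes), namely *Orc1*, *Orc6*, *Mcm2*, *Mcm5*, *Mcm10*, *Rpa2*, *Fen1*, *Rrm2*, *Uhrf1* and *Ccne2*. Some of these calls lay near the threshold and were lost under other settings. For *Orc6* in the S42D against the S42A line, -0.16 ± 0.055 became -0.15 without S42A replicate 2, -0.13 without S42A replicate 3, -0.17 without S42D replicate 1, -0.15 without S42D replicate 2 and -0.15 without S42D replicate 3, and the call was also lost with the array medians centred or all probe sets tested. For *Rpa2* in the same comparison, -0.18 ± 0.058 became -0.16 without S42A replicate 2, -0.14 without S42A replicate 3 and -0.16 without S42D replicate 2, and the call was also lost with the array medians centred or only these lines fitted. For *Rrm2* in the S42A against the wild-type line, -0.15 ± 0.050 became -0.16 without wild-type replicate 1, -0.14 without wild-type replicate 2, -0.15 without wild-type replicate 3, -0.15 without S42A replicate 1, -0.16 without S42A replicate 2 and -0.14 without S42A replicate 3. For *Mcm7*, which counts among the 21, -0.15 ± 0.047 in the S42A against the wild-type line became -0.15 without wild-type replicate 2 and -0.14 without S42A replicate 3, and -0.14 ± 0.047 in the S42D against the wild-type line became -0.14 without wild-type replicate 1, -0.14 without wild-type replicate 2, -0.13 without S42D replicate 1 and -0.14 without S42D replicate 2 and was not called with cyclic loess (-0.09).

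Within Tw1KD, replicate 2 was the lowest of the 3 arrays for 29 of the 37 members, against 41.5% of all genes. Without it, 25 members were called between Tw1KD and parental cells in place of 24, and the median was 0.24. The 14 members with E2F-type letters in their promoter window and the 17 without them were read side by side. Their medians were 0.19 and 0.20 between Tw1KD and parental cells and 0.22 for both between the S42D line and Tw1KD. Over Tw1KD the medians with and without the letters were 0.67 and 0.81 in the wild-type line and 0.32 and 0.51 in the S42A line. Between the S42D and S42A lines they were 0.010 with the letters, where 1 gene was called higher and 3 lower, and -0.25 without them, where 3 were higher and 12 lower. Of all genes, 17.1% were called higher and 19.1% lower in that comparison. Over parental cells the wild-type line had 0.79 and 1.18. These splits are descriptions and were not tested.

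Another 82 genes of the replication pathway, outside the 37, were read from 6 lists. Between Tw1KD and parental cells 45 higher and 14 lower were called, with a median of 0.20, where 36.3% of all genes were called. Against Tw1KD the counts were 59 higher and 13 lower in the wild-type line (median 0.42), 53 higher and 15 lower in the S42A line (0.32) and 41 higher and 19 lower in the S42D line (0.14), where 48%, 42.5% and 43.4% of all genes were called. Against the wild-type line they were 16 higher and 39 lower in the S42A line and 17 higher and 52 lower in the S42D line, and between the mutant lines 15 higher and 40 lower, where 40%, 43.3% and 36.1% of all genes were called.

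Of 17 other licensing and firing genes, the calls were 11 higher and 2 lower between Tw1KD and parental cells, and 14 higher and 0 lower, 11 higher and 1 lower and 8 higher and 4 lower in the wild-type, S42A and S42D lines over Tw1KD. Shares of all genes called were 19.9% higher and 16.4% lower between Tw1KD and parental cells. In the 3 lines over Tw1KD they were 23.5%, 22.8% and 21.7% higher and 24.5%, 19.7% and 21.7% lower. *Cdc7*, the kinase that fires origins, was higher in the wild-type line by 1.05 ± 0.070. In the S42D line *Donson*, a fork component, was higher than in Tw1KD by 1.29 ± 0.082, and *Orc2*, a core subunit of the recognition complex, was lower by -0.78 ± 0.059. *Orc2* was also -1.44 ± 0.059 in the S42D against the wild-type line. Of 20 other polymerase, clamp and loader genes, the calls were 12 higher and 3 lower between Tw1KD and parental cells, and 12 higher and 6 lower, 9 higher and 6 lower and 6 higher and 6 lower in the wild-type, S42A and S42D lines over Tw1KD. The small polymerase delta subunit *Pold4* ran opposite to most members, with 1.12 ± 0.046 from parental to Tw1KD cells and -0.99 ± 0.046, -2.04 ± 0.046 and -0.92 ± 0.046 in the 3 lines over Tw1KD. The nuclease gene *Exo1* was higher in the wild-type line by 1.30 ± 0.076 and the single-strand binding subunit *Rpa3* in the S42A line by 1.29 ± 0.11.

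Of 9 fork protection and checkpoint genes, the calls were 6 higher and 1 lower between Tw1KD and parental cells, and 8 higher and 0 lower, 7 higher and 1 lower and 5 higher and 0 lower in the wild-type, S42A and S42D lines over Tw1KD. Shares of all genes called were 19.9% higher and 16.4% lower between Tw1KD and parental cells. In the 3 lines over Tw1KD they were 23.5%, 22.8% and 21.7% higher and 24.5%, 19.7% and 21.7% lower. *Tipin*, which travels with the fork, was lower in Tw1KD than in parental cells by -0.52 ± 0.099 and higher in the wild-type line by 1.53 ± 0.099. *Brca1*, which protects stalled forks, was higher in Tw1KD by 0.75 ± 0.075. Of 10 genes that copy chromatin, the calls were 4 higher and 3 lower between Tw1KD and parental cells, and 10 higher and 0 lower, 8 higher and 1 lower and 7 higher and 1 lower in the wild-type, S42A and S42D lines over Tw1KD. The histone chaperone gene *Chaf1a* was higher in the wild-type line by 1.13 ± 0.045 and *Chaf1b* in the S42D line by 1.17 ± 0.047. The chromatin remodeller gene *Hells* was higher in Tw1KD than in parental cells by 0.95 ± 0.065 and lower in the S42D line than in Tw1KD by -0.67 ± 0.065.

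Of 10 other nucleotide supply genes, the calls were 5 higher and 0 lower between Tw1KD and parental cells, and 5 higher and 3 lower, 7 higher and 2 lower and 6 higher and 3 lower in the wild-type, S42A and S42D lines over Tw1KD. Shares of all genes called were 19.9% higher and 16.4% lower between Tw1KD and parental cells. In the 3 lines over Tw1KD they were 23.5%, 22.8% and 21.7% higher and 24.5%, 19.7% and 21.7% lower. *Dck*, deoxycytidine kinase, was higher by 1.16 ± 0.043, 1.12 ± 0.043 and 1.12 ± 0.043 in the 3 lines. Of 16 genes of the E2F and retinoblastoma axis, the calls were 7 higher and 5 lower between Tw1KD and parental cells, and 10 higher and 4 lower, 11 higher and 4 lower and 9 higher and 5 lower in the wild-type, S42A and S42D lines over Tw1KD. *Fbxo5*, an inhibitor of the anaphase-promoting complex, was higher in the wild-type line by 1.49 ± 0.11 and the retinoblastoma gene *Rb1* lower by -0.92 ± 0.049. In the S42D line the repressor gene *E2f4* was lower by -0.76 ± 0.039 and *Skp2*, which marks cell cycle inhibitors for degradation, higher by 0.75 ± 0.037.

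Mitosis genes, which act later in the cycle, were read beside the replication members. Of 28, 4 higher and 17 lower were called between Tw1KD and parental cells, with a median of -0.18, where the replication members had 20 higher and 4 lower and a median of 0.20. Of all genes, 19.9% were called higher and 16.4% lower there. *Kif20a*, a kinesin of cytokinesis, was lower in Tw1KD by -0.69 ± 0.047 and the spindle checkpoint kinase gene *Ttk* higher by 0.57 ± 0.095. Over Tw1KD, 28, 27 and 27 mitosis genes were called higher in the wild-type, S42A and S42D lines, and none lower, with medians of 0.80, 0.82 and 0.54. In the same lines 23.5%, 22.8% and 21.7% of all genes were called higher. The replication medians were 0.81, 0.41 and 0.22. Between the S42A and wild-type lines, 6 higher and 10 lower mitosis genes were called, with a median of -0.041, against 7 higher and 24 lower replication members and a median of -0.24. There 20% of all genes were called in each direction. Between the S42D and wild-type lines the counts were 1 higher and 20 lower, where 20.7% of all genes were called higher and 22.6% lower. *Aurka*, a mitotic kinase gene, was lowest there by -0.83 ± 0.039. The medians of 11 housekeeping genes lay between -0.06 and 0.10 in these comparisons. Their mean, with each gene set against its average over all arrays, moved more. It ran from -0.15 to -0.10 on parental and -0.15 to -0.09 on Tw1KD arrays. On wild-type, S42A and S42D arrays it ran from 0.11 to 0.15, 0.13 to 0.19 and -0.04 to -0.02. The difference between the mitosis and replication lists was not tested.

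**Figure D5:**
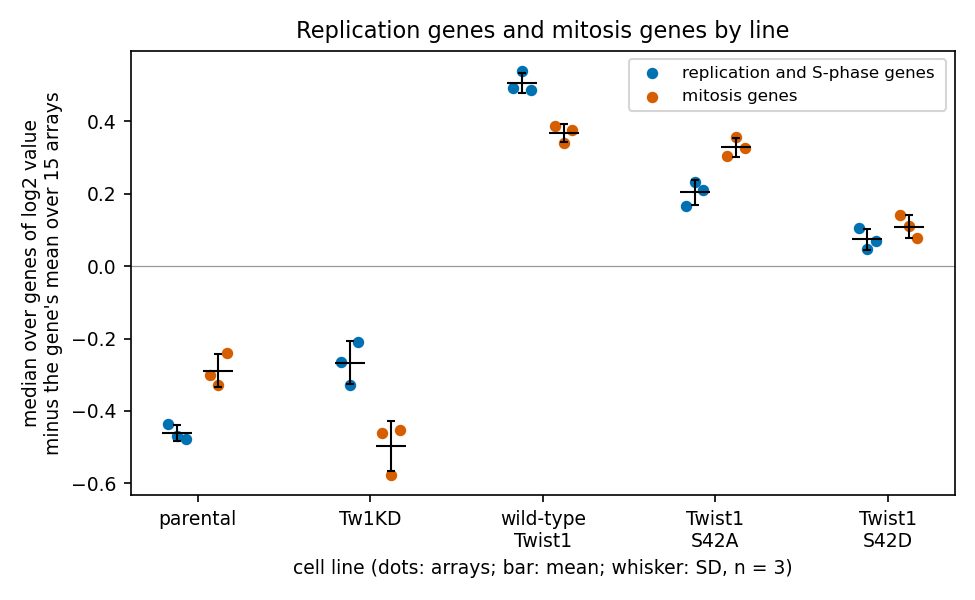
Median over genes of the log2 value minus the gene's mean over 15 arrays, for the 37 replication genes (blue) and 28 mitosis genes (orange) in each line; dots are arrays, bars the line mean and whiskers the SD (n = 3). Replication arrays of Tw1KD lie above those of parental cells while mitosis arrays lie below, and in the S42A line the mitosis arrays lie above the replication arrays.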

How the data were processed

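Total RNA of 5 lines of 4T1 cells, with 3 arrays each, was labelled and hybridised to arrays, starting from 100 ng per sample per the labels. Each probe set had 1 log2 intensity per array, as summarised and deposited by the authors. R 2.10.0 and affy are named in the submitters' processing notes. The background correction and the normalization are not given in the sources used here, and the log2 unit was read from the values. An array scaled to its fellows hides any change common to all transcripts, and precision is limited by the number of arrays.

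Of 34760 probe sets, 21640 carried 1 gene symbol, 1321 several and 11799 none. Symbols were updated by gene number (GRCm38.p6 gene table, 21553 matched), and the brightest probe set with 1 symbol stood for each of 19937 genes. limma 3.58.1 under R 4.3.3 fitted 5 line means over all 15 arrays (10 residual degrees of freedom), with Benjamini-Hochberg adjustment over all genes, 2-sided, in each of 10 comparisons. The 7 main ones set Tw1KD against parental cells, the re-expressing lines against Tw1KD and those lines against each other. Errors after ± are standard errors. The script was tested on simulated data. Promoter windows came from RefSeq.

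The members and all lists were chosen with earlier results of these data known. Values on every array are given for the 2 members of each role (1 in roles of 3 or fewer) with the widest range of line means, for members called against the direction of at least 20 others, and for members called in no main comparison. From other lists, names were taken among the largest called rise and fall per comparison. Alternatives were 3 other scalings, a filter on dim genes, the mean of a gene's probe sets, all probe sets tested, the replicate number as a block, array weights, only the lines compared, and each array left out.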

Additional observations from a re-analysis of the deposited data

Results flagged for a closer look

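For 4 members the re-expressing lines moved in opposite directions from the Tw1KD arrays they share, and the difference between the lines was itself tested and called by limma. *Cdc45* was called higher than Tw1KD in the wild-type line and lower in the S42A line, and the S42A line was below the wild-type line by -1.04. *Rfc4* had the same pattern, with -0.78. *Orc6* was called higher in the wild-type line and lower in the S42D line, and the S42D line was below the wild-type line by -0.94. *Mcm5* was called higher in the wild-type and S42A lines and lower in the S42D line, with -0.64 for the S42D against the wild-type line and -0.48 for the S42D against the S42A line. *Cdc45* was also called lower in the S42A line and higher in the S42D line, which differed by 0.36, but its call in the S42D line over Tw1KD was lost whenever 1 array of either line was left out (0.09 to 0.11). The *Mcm5* fall in the S42D line from Tw1KD was not called with the array medians centred or with only those lines fitted.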

How the results depend on the processing

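The counts of members called stayed within 1.5 times in all 150 refits, and the median differences kept their direction in all 150. Of 213 differences of named genes, none reversed, 16 lost their call in at least 1 setting and 3 gained it. Medians moved by more than the spread between arrays in 20 refits. With each array centred on its median they were 0.90 for the wild-type line and 0.47 for the S42A line over Tw1KD, -0.27 and -0.55 for the S42A and S42D lines over the wild-type line, and 1.05, 0.77 and 0.58 for the wild-type, S42A and S42D lines over parental cells. Centring also moved the median of all genes in the wild-type line over parental cells from -0.050 to 0.074. With quantile normalization the median was -0.47 for the S42D over the wild-type line and 0.84, 0.63 and 0.46 for the 3 lines over parental cells. With cyclic loess it was 0.76 for the wild-type line over Tw1KD, -0.45 and -0.12 for the S42D line over the wild-type and S42A lines, and 0.86 and 0.63 for the wild-type and S42A lines over parental cells. With 1 array left out, the median ran from 0.38 to 0.48 for the S42A line over Tw1KD, from 0.90 to 0.95 for the wild-type line over parental cells and from 0.47 to 0.54 for the S42D line over parental cells. The cause of these moves was not tested.

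With the replicate number as a block, 20 members were higher and 3 lower in Tw1KD than in parental cells, 22 higher and 3 lower in the S42D line than in Tw1KD, and 5 higher and 18 lower in the S42D than in the S42A line. The *Mcm6* call between Tw1KD and parental cells and the *Cdc45* call between the S42D line and Tw1KD were lost. Arrays of the same number correlated in their deviations at a median of -0.038 over 30 pairs (from -0.39 to 0.42, 7 over 0.1). Arrays of different number did so at a median of 0.038 over 60 pairs (from -0.44 to 0.43, 20 over 0.1). Between parental and Tw1KD arrays the values for replicates 1, 2 and 3 were 0.015, 0.39 and 0.42. Whether a number marks a shared culture or run was not tested.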
